A study of Mus musculus with 2 samples.

Results

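The 10 hairpins from Mir487b to Mir410 form the downstream end of a microRNA array on mouse chromosome 12, and they were taken by gene symbol from the 2202 microRNA genes measured. All 10 were detected, meaning that neither library had fewer than 10 counts for the gene. Small RNA was sequenced from left cerebral cortex tissue of male B6CASTF1/J mice, 14 days of age, in 2 libraries labelled biological replicates 1 and 2. B6CASTF1/J is a first-generation hybrid between the strains C57BL/6 and CAST/Ei, and the counts do not separate the parental alleles. Both libraries are untreated tissue, form 1 group, and were made from total RNA with a labelled size range below 30 nucleotides. They carry separate tissue records and the same donor record. Separate animals are not stated, so an SD here is the spread of these libraries, which may be technical. With 1 group there is no comparison between conditions.

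The hairpins belong to a polycistron: many microRNAs are cut from a single long primary transcript. Drosha frees each hairpin in the nucleus, Dicer opens it into 2 arms in the cytoplasm, and a retained arm guides Argonaute to messenger RNAs that pair with its seed, bases 2 to 8. The array lies in the imprinted Dlk1-Dio3 region, is transcribed from the maternal chromosome, and in neurons its transcription is induced by activity through Mef2. Mir134 is known from dendrites, where it represses Limk1 and restrains the size of dendritic spines, and Mir485 is known to repress the synaptic vesicle protein SV2A. Mir369 is known to act on an AU-rich element of a cytokine messenger RNA.

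By mm10 coordinates in GENCODE M21 the hairpins span 16463 bases of the plus strand, from 109727333 to 109743795. Mirg, the non-coding gene that gives the array one of its names, is annotated from 109729764 to 109749460, so Mir487b lies 2349 bases ahead of its annotated start. Mir134, Mir485, Mir377 and Mir410 lie within exons of at least 1 Mirg transcript. Mir154, Mir541 and Mir409 are intronic, and Mir382 and Mir369 overlap the edge of an exon. Mir409, Mir369 and Mir410 sit together within 638 bases.

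RefSeq (GRCm38.p6) lists 18 mature forms for these 10 genes, both arms for 8 of them, miR-487b-5p for Mir487b and miR-485-3p for Mir485. The other arms of Mir487b and Mir485 are not listed there, so their seeds were not compared and the counts of like seeds below leave them out. All 10 RefSeq hairpins equal the GENCODE hairpins. The counts are per hairpin and do not separate the arms, so no level below belongs to a single mature form. The following forms are printed 5′ to 3′ with the seed in capitals, because they show how near the seeds of these hairpins come to each other. The first 4 are from 5′ arms that carry a related motif in or next to the seed.
miR-487b-5p: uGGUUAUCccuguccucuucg
miR-409-5p: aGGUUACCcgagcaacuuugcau
miR-410-5p: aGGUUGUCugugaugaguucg
miR-154-5p: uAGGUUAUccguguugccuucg
The seeds of miR-487b-5p and miR-409-5p differ at 1 of 7 positions, as do those of miR-487b-5p and miR-410-5p. The seed of miR-154-5p is that of miR-487b-5p shifted by 1 base.

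A similar set comes from 3′ arms, where neighbouring seeds are again alike but not the same.
miR-485-3p: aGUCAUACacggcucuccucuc
miR-154-3p: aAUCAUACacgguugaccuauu
miR-369-3p: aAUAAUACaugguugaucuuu
miR-410-3p: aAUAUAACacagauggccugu
The seed of miR-154-3p differs at 1 position from that of miR-485-3p and at 1 position from that of miR-369-3p. The seeds of miR-369-3p and miR-410-3p differ at 2 positions. Forms from the abundant hairpins and from dendritic Mir134 are shown as well. Of these, miR-382-5p has a seed that differs at 2 positions from that of miR-154-5p.
miR-382-5p: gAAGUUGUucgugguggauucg
miR-382-3p: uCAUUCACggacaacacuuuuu
miR-541-5p: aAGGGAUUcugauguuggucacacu
miR-134-5p: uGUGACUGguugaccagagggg

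All 18 seeds were distinct. Of 153 pairs of forms, 4 had 1 mismatch in the seed and 5 had 2. For 14 of the 18 forms no other of the 1679 mouse mature forms in the RefSeq table had the same seed. The exceptions were miR-134-3p with the seed of miR-3620-5p, miR-377-5p with that of miR-672-5p, miR-410-5p with that of miR-494-5p, and miR-410-3p with that of miR-344d-3p and miR-344e-3p. Mir494 lies upstream in the same array and had 186 counts in replicate 1 and 114 in replicate 2, or 40.5 CPM on average. CPM is the count scaled to a common library total of 1000000 counts in microRNA genes.

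**Figure D1:**
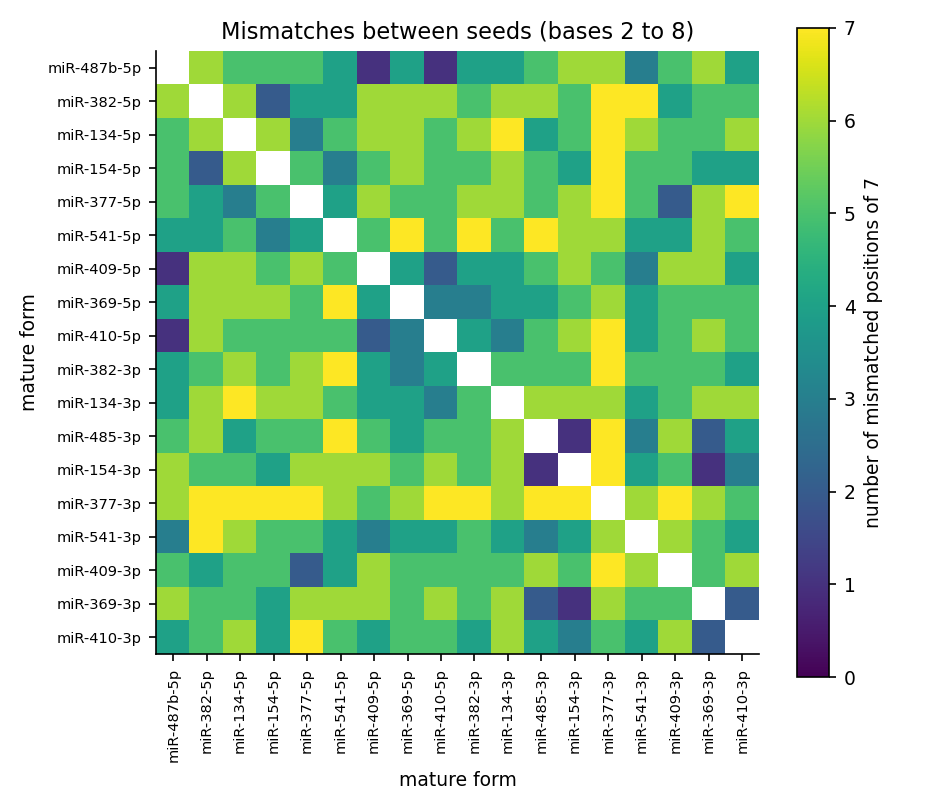
Number of mismatched positions, of 7, between the seeds of each pair of the 18 mature forms (both axes, 5′ arms first, then 3′ arms; the colour gives the number and the diagonal is blank). The darkest squares are the 4 pairs with 1 mismatch, miR-487b-5p with miR-409-5p and miR-410-5p, and miR-154-3p with miR-485-3p and miR-369-3p.

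The whole hairpins of the 10 were also aligned in pairs, and no other hairpins were aligned as a baseline. Over 45 global alignments the median identity was 57.3% and the highest 68.7%, for Mir487b with Mir409 and for Mir382 with Mir410. Of the 10 hairpins 1 shared an 18-base stretch with another microRNA gene: the last 20 of the 82 bases of Mir487b (hairpin bases 63 to 82) equal a stretch of Mir376b. A read lying wholly within those bases would match several positions and be counted for neither gene. The listed miR-487b-5p covers hairpin bases 15 to 35, outside that stretch. How many Mir487b reads were lost this way was not tested.

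Replicate 1 held 4111167 counts in microRNA genes from 11224232 reads, and replicate 2 held 3189903 from 8758378. Reads that matched several positions made up 39.1% and 41.4% of the reads and were given to no gene. The 15 listed neuronal microRNAs held 15.1% of the counts in replicate 1 and 14.1% in replicate 2, with 11 detected. Most of that share came from a single gene, Mir139, which had 101560 and 83088 CPM. No copy of Mir124a was among the detected genes, and neither was Mir9-2. The other copies of Mir9 were low, with means of 18.5 CPM for Mir9-1 and 101 CPM for Mir9-3. Whether reads of Mir124a or Mir9 were lost because they match several positions was not tested. The 3 oligodendrocyte markers held 0.286% and 0.253%, the 6 microglia and leukocyte markers 0.774% and 1.00%, and endothelial Mir126a 1.04% and 1.32%. Most of the microglia and leukocyte share also came from a single gene, Mir342, at 5821 and 7986 CPM. Smooth muscle and pericyte markers held 0.507% and 0.522%, and choroid plexus markers 0.0694% and 0.0888%. Of 7 skeletal and cardiac muscle markers, 4 had 0 counts in both libraries, Mir1a-1, Mir1a-2, Mir133a-1 and Mir133a-2. These are copies of Mir1a and of Mir133a, each pair with the same mature sequence, so a 0 here does not show that the microRNA is scarce. Liver Mir122 held 0.00518% and 0.00480%, and erythroid Mir451a 0.00370% and 0.00705%. The part of other cell types in the levels below was not tested. In tissue, fewer cells of a type and less RNA per cell cannot be told apart.

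Together the 10 hairpins held 309565 counts in replicate 1 and 240449 in replicate 2. That is 7.53% ± 0.00563 of all counts (SD, n = 2), 7.53% in replicate 1 and 7.54% in replicate 2. With library totals their summed level differed by 0.00152 on the log2 scale, and with TMM library sizes by 0.08. Their median was 2516 CPM, against 129 CPM for the 406 detected genes. Of the 10, 7 reached a mean of 1000 CPM, as did 25.9% of the detected genes.

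Mir487b, Mir382 and Mir541 held most of these counts. Mir487b had 121980 counts in replicate 1 and 104685 in replicate 2, or 29670 and 32818 CPM (mean 31244 ± 2225, SD, n = 2). It was the 7th most abundant microRNA gene by mean CPM, 2.97% of all counts in replicate 1 (exact Clopper-Pearson 95% interval 2.95 to 2.98%) and 3.28% in replicate 2 (3.26 to 3.30%). Replicate 2 was the higher library for Mir487b. Mir382 had 83962 and 60516 counts, or 20423 and 18971 CPM (19697 ± 1027), and ranked 13th. Mir541 had 44211 and 36006 counts, or 10754 and 11288 CPM (11021 ± 377), and ranked 23rd. For none of the 3 did a library reach the range of another. In both libraries Mir487b stood above Mir382, 1.45 times in replicate 1 and 1.73 times in replicate 2.

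Mir409 and Mir369, which lie close together near the end of the array with Mir412 between them, followed. Mir409 had 24839 and 15832 counts, or 6042 and 4963 CPM (5502 ± 763). It is the only one of the 10 with a microRNA gene annotated on the other strand, Gm24321. With strand ignored its count was 0 in both libraries, so its level rests on the stranded counts. Mir369 had 12992 and 9210 counts, or 3160 and 2887 CPM (3024 ± 193). Both were lower in replicate 2, and Mir409 exceeded Mir369 in each library, 1.91 times in replicate 1 and 1.72 times in replicate 2.

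The synaptic pair stood in the lower middle of the order. Mir485 had 9001 and 5831 counts, or 2189 and 1828 CPM (2009 ± 256). Mir134 had 4153 and 2619 counts, or 1010 and 821 CPM (916 ± 134), and ranked 110th of all microRNA genes. Both were lower in replicate 2, and the libraries of Mir485 lay above those of Mir134. Their ratio was nearly the same in the libraries, 2.17 in replicate 1 and 2.23 in replicate 2. Between them in level was Mir154, with 6573 and 4464 counts, or 1599 and 1399 CPM (1499 ± 141).

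Mir377 and Mir410 were the lowest of the 10. Mir377 had 1188 and 647 counts, or 289 and 203 CPM (246 ± 60.9), and Mir410 had 666 and 639 counts, or 162 and 200.3 CPM (181 ± 27.1). Mir377 was higher in replicate 1 and Mir410 in replicate 2. In replicate 2 their exact 95% intervals overlapped, at 0.0187 to 0.0219% of all counts for Mir377 and 0.0185 to 0.0216% for Mir410, so their order was not detectable at that depth. In replicate 1 Mir377 stood 1.78 times above Mir410.

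**Figure D2:**
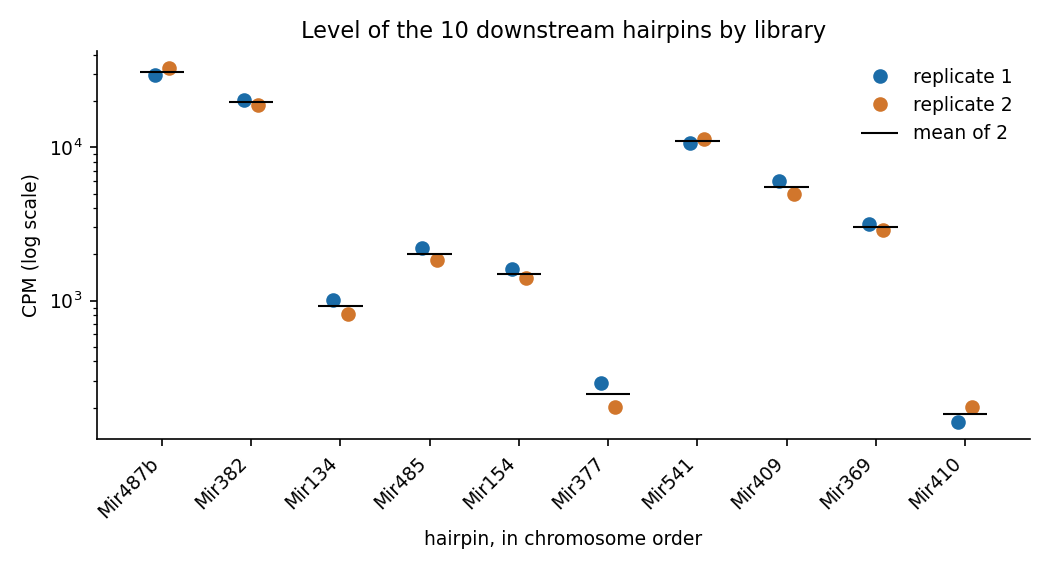
Level of each of the 10 hairpins in CPM on a log axis, in chromosome order, with a point for each library and a bar for the mean of 2. Levels run from 181 CPM for Mir410 to 31244 CPM for Mir487b, and the libraries lie close together beside that range.

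The order of the 10 levels was the same in both libraries. In none of the 9 neighbouring pairs of that order did the ranges of the libraries overlap, although Mir377 and Mir410 came within counting error in replicate 2. The highest mean was 172 times the lowest. The SD between the libraries was 3.42% of the mean for Mir541 and 24.8% for Mir377, the extremes of the 10. Mir487b and Mir382 together held 67.6% ± 1.54 of the counts of the 10 (SD, n = 2), and with Mir541 and Mir409 the leading 4 held 89.5% ± 1.01. Mir377 and Mir410 together held 0.567% ± 0.0453.

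**Figure D3:**
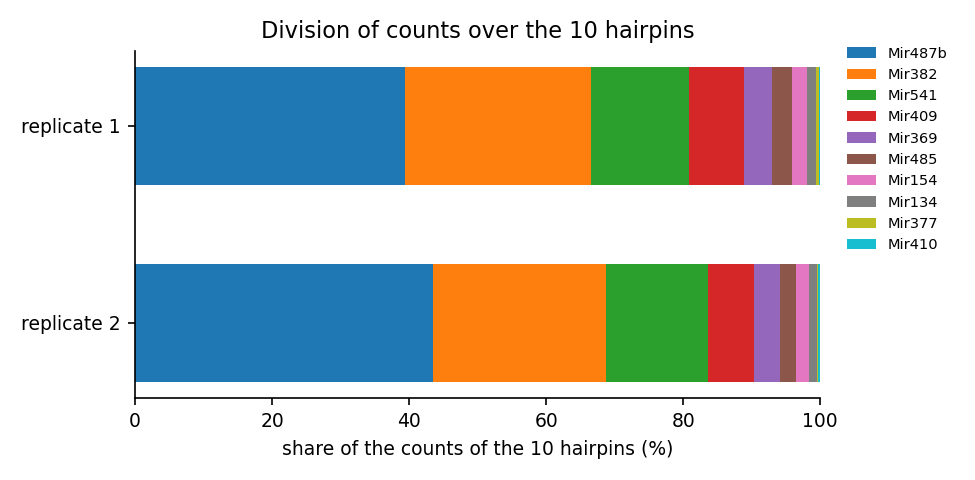
Share of the counts of the 10 hairpins, in percent, held by each hairpin in replicate 1 and replicate 2 (stacked bars, ordered by mean level). Mir487b holds 39.4% in replicate 1 and 43.5% in replicate 2, and Mir382 holds 27.1% and 25.2%.

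Some hairpins near each other on the chromosome differed widely in level. Mir382 and Mir134 are 292 bases apart, and Mir382 stood 21.7 ± 2.04 times above Mir134 (SD, n = 2). Mir377 precedes Mir541 by 1831 bases, and Mir541 stood 46.4 ± 13.0 times above it. Within the 638 bases that hold Mir409, Mir369 and Mir410, Mir409 stood 31.0 ± 8.85 times and Mir369 17.0 ± 3.60 times above Mir410. Other near pairs differed less. Mir409 stood 1.91 times above Mir369 in replicate 1 and 1.72 times in replicate 2. For Mir485 over Mir134 these values were 2.17 and 2.23. Difference in level against distance was not tested over all pairs. Across the 10 hairpins, Spearman's rho of mean CPM with place in the array was -0.45, with hairpin length 0.51, with GC content 0.12, with the folding energy computed for the hairpin -0.13 and with that energy per base 0.35. Each is a description over n = 10 hairpins of the same libraries. All mature forms listed are 20 to 25 bases long, and levels were not scaled by length.

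The array from Mir379 to Mir410 holds 38 microRNA genes on the plus strand, of which 34 were detected, and 10.4% ± 0.299 of all counts. The 10 hairpins made up 72.2% ± 2.01 of the array's counts (SD, n = 2), 73.6% in replicate 1 and 70.7% in replicate 2. The 21 genes upstream of Mir487b made up 25.1% ± 1.46, led by Mir411 at 6076 and 7301 CPM, Mir379 at 4993 and 7672 CPM and Mir323 at 3785 and 3141 CPM. Only Mir487b, Mir382 and Mir541 of the whole array had a mean above that of Mir411. The median of the 28 other array genes was 393 CPM. Without Mir487b, which shares a stretch with Mir376b, the other 9 hairpins made up 60.3% of the array's remaining counts. Besides these 38 genes, 28 other microRNA genes lie on either strand of the imprinted region, from 109544541 to 109747960 on chromosome 12. They include minus-strand genes opposite array hairpins, such as Gm24321 opposite Mir409. These 28 held 11.5% ± 0.940 of all counts, and 17 of them were detected.

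The 7 array genes that lie among the 10 hairpins without being one of them held 2.77% ± 0.548 of the array's counts. Mir668, 104 bases ahead of Mir485, had 1124 and 2197 CPM, and Mir412 had 744 and 695 CPM. Mir496a had 298 and 366 CPM and Mir539 had 266 and 97.8 CPM. Mir544 had 41 and 45 counts, Gm27379 had 3 and 2, and Mir453 had 0 in both libraries. At these depths a count of 0 is compatible with levels up to 0.730 CPM (replicate 1) and 0.940 CPM (replicate 2), by counting error only.

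**Figure D4:**
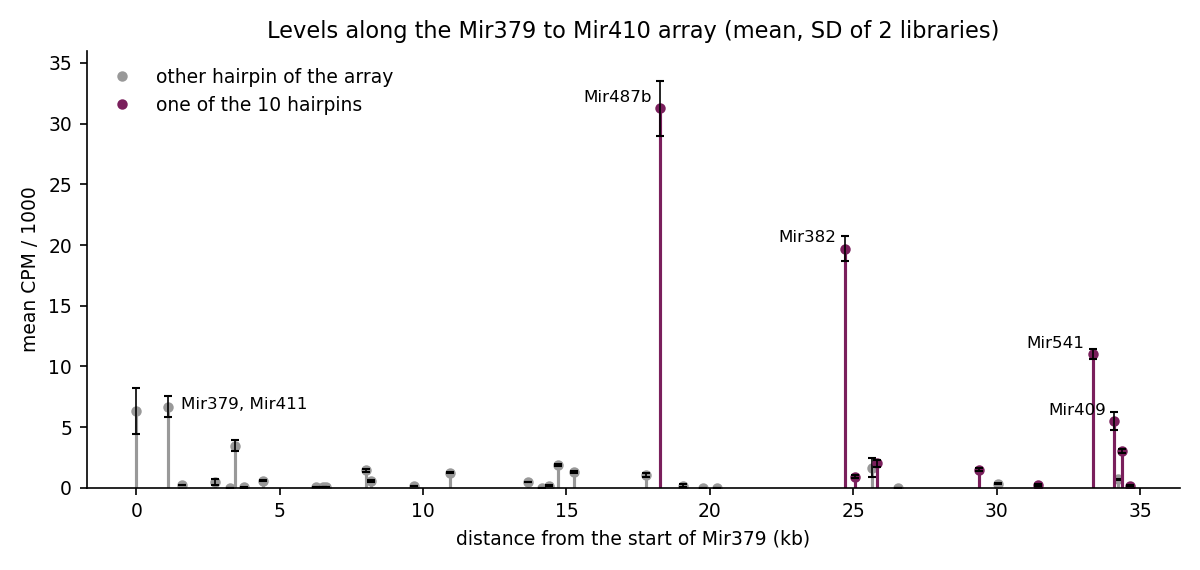
Mean CPM divided by 1000 of the 38 array genes against their distance in kb from the start of Mir379, with error bars for the SD of 2 libraries. The 10 hairpins are in purple and the other 28 in grey. Mir487b, Mir382 and Mir541 stand above all others, with low hairpins between them.

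A gene of nearly the same level was sought for each hairpin by the distance of log2(CPM + 1) over the 2 libraries, among all detected genes. Mir433, of the same imprinted region, was nearest to Mir382, at 20495 and 19332 CPM (distance 0.03). Mir431 of that region was nearest to Mir369, at 3130 and 2876 CPM (distance 0.01). Mirlet7d was nearest to Mir487b, at 30038 and 28387 CPM (distance 0.21), and Mir497 to Mir134, at 1115 and 872 CPM (distance 0.17). Of the 10 nearest genes 2 lay in the imprinted region, whose microRNA genes, the array included, are 12.6% of the detected genes. With 2 libraries of 1 group, this likeness is one of level alone.

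The libraries were compared gene by gene with a two-sided exact binomial test of each gene's counts against the library totals, adjusted by Benjamini-Hochberg over 406 detected genes. The test sets 2 libraries against read sampling and allows for no further spread. Higher in replicate 2 were 3 of the 10 hairpins, where 23.4% of the detected genes were, and lower were 7, where 34.7% of the detected genes were. No hairpin missed the threshold of 0.05, and 41.9% of all detected genes did. Counts of abundant genes pass such a test at small differences, so passing it says little about size. Over all detected genes 95 were higher and 141 lower. Size factors from DESeq2, which raise every log2 ratio by 0.08, changed this to 112 and 108.

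Mir410 had the largest ratio in favour of replicate 2, a log2 ratio of CPM of 0.31 (adjusted p = 0.000287, exact binomial test), followed by Mir487b at 0.15 and Mir541 at 0.07. Mir377 had the largest in favour of replicate 1, a log2 ratio of -0.51 (adjusted p = 7.97e-13, exact binomial test). The log2 ratio was -0.30 for Mir134, -0.28 for Mir409, -0.26 for Mir485, -0.19 for Mir154, -0.13 for Mir369 and -0.11 for Mir382. With TMM library sizes the same 3 hairpins were higher and the same 7 lower. The smallest ratios shifted most in proportion, Mir382 to -0.03, Mir369 to -0.05, Mir154 to -0.11, Mir541 to 0.15 and Mir487b to 0.22.

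Neighbouring hairpins differed between the libraries in the same direction in some places and in opposite directions in others. Mir409, Mir412 (log2 ratio -0.10) and Mir369, which follow each other, were all lower in replicate 2 with library totals, as were Mir382 and Mir134. Mir668, which lies between Mir134 and Mir485, was higher in replicate 2 (log2 ratio 0.97), while both of them were lower. Mir539, downstream of Mir487b, was lower (-1.44), while Mir487b was higher. Upstream, Mir379 (0.62) and its neighbour Mir411 (0.26) were both higher. Among the 24 other array genes detected, the test called 9 higher in replicate 2, 8 lower and 7 neither. The median absolute log2 ratio was 0.23 over the 10 hairpins, 0.25 over the other detected genes of the array and 0.30 over all detected genes. Of the 10 hairpins 9 lay within 0.5 of no difference, as did 67.7% of the detected genes. The detected genes were not matched to the hairpins for level, with a median of 129 CPM against 2516 CPM. Whether the hairpins differ less than genes of like level was not tested.

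**Figure D5:**
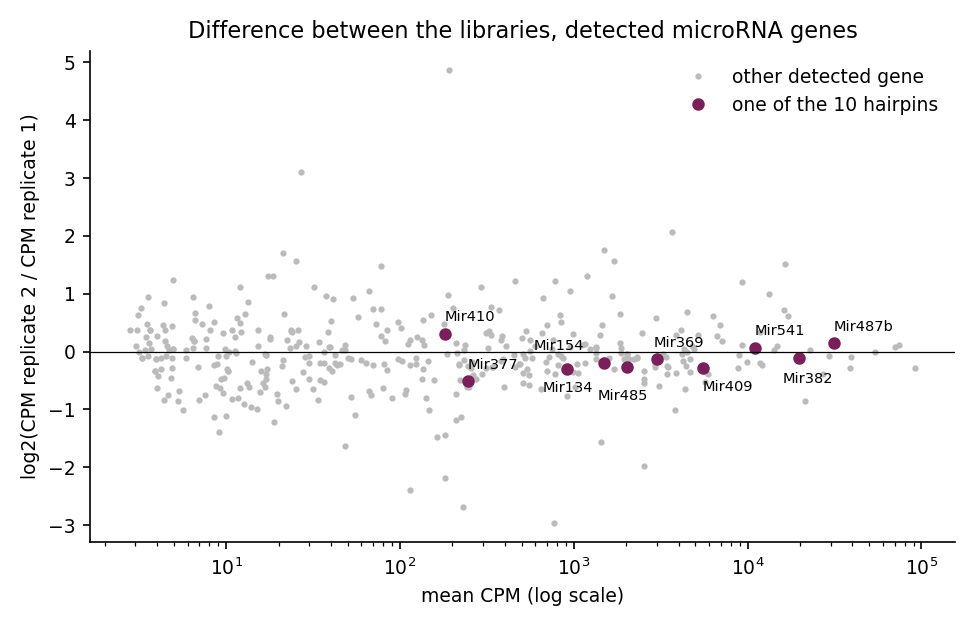
Log2 ratio of CPM in replicate 2 over replicate 1 against mean CPM (log axis) for the 406 detected genes, with the 10 hairpins in purple. The hairpins lie between -0.51 (Mir377) and 0.31 (Mir410), while some other genes lie beyond 2 in either direction. The other genes are not matched to the hairpins for level.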

How the data were processed

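The authors deposited unnormalized read counts for each microRNA gene of 2 libraries, on the mm10 assembly with GENCODE annotation M21, per the descriptions deposited beside the tables. The aligner and counter are not stated there or in the labels. Counts came from the column for the gene's own strand, and 2202 gene IDs matched GENCODE M21. Rows that name no gene (unmapped, several positions, no gene) were left out of the totals: they made up 63.4% of the reads in replicate 1 and 63.6% in replicate 2.

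CPM used the sum over microRNA genes. The detection minimum was 10 counts in both libraries. Intervals are exact Clopper-Pearson at 95% and, like the limit of 3 counts for a 0, cover counting error only, since without molecular identifiers several reads can come from 1 molecule. The exact test ran in SciPy 1.17.1 and used library totals, or TMM (edgeR 4.0.16) or DESeq2 1.42.0 sizes as alternatives. It was checked on simulated counts that held read sampling only, so the check says nothing about spread beyond that. With 1 group, no count model was fitted and no test over samples is given. Hairpins were folded with RNAfold (ViennaRNA 2.7.2) and aligned with Biopython 1.88. Named genes are the 10 hairpins, array genes lying among them, the 3 highest other array genes, the genes nearest in level and cell type markers. Mir494, Mir376b and Gm24321 were named after seeds, shared stretches and strands had been compared, and Mir139 as the most abundant gene. Members, lists and tests were chosen with earlier results of these data known. Alternatives were strand ignored, other count minimums, other totals, a threshold of 0.01 and leaving out Mir139, the leading hairpin or each replicate.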

Additional observations from a re-analysis of the deposited data

How the results depend on the processing

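The share of all counts held by the 10 hairpins (7.53%) was 7.50% with strand ignored, which sets Mir409 to 0, 8.30% with Mir139 left out of the total, 2.75% of all reads and 4.55% without Mir487b, which is both the leading hairpin and the one that shares an 18-base stretch. Without Mir487b the share of the array was 60.3%, and the leading 2 of the remaining hairpins held 69.7% of their counts. With strand ignored the leading 2 held 72.9%. These moves follow from the genes or reads left out. All 10 hairpins were detected at a minimum of 50 counts, and 9 with strand ignored. The split of 3 higher and 7 lower in replicate 2 was the same with TMM or DESeq2 sizes, at a threshold of 0.01 and with no minimum, and 3 and 6 with strand ignored. With 2 libraries, leaving out either cannot move a mean by more than its SD and says nothing about stability. Of 40 other values of single hairpins, 20 moved by more than 1 SD, all 10 with all reads as the total and none with TMM sizes. No paired analysis was possible because there is 1 group.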
